A study of Mus musculus with 46 samples.

Results

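The genes described here encode the subunits of the mitochondrial oxidative phosphorylation system, and they were followed through tumors that arose in 8 engineered mouse models of mammary cancer and through normal mammary gland. Members were all genes whose annotated symbol begins with Nduf, Uqcr, Atp5 or Cox4 to Cox8, together with Sdha, Sdhb, Sdhc and Sdhd. Of 10470 genes with a probe set of their own on the array, 84 met this rule. They comprised 33 subunit genes of complex I, 4 of complex II, 8 of complex III, 11 of complex IV and 17 of complex V, which are called core subunits below, 5 complex I assembly factors (the Ndufaf genes), 3 muscle forms of complex IV subunits (Cox6a2, Cox7a1 and Cox8b) and 3 forms known from other tissues (Cox4i2, Cox6b2 and Cox8c). Where a gene had several probe sets, the one brightest on average across the 46 arrays stood for it. A gene was tested when its log2 value exceeded 4 in at least 3 arrays, which 81 members did. Ndufb1, Cox4i2 and Cox8c did not, with mean log2 values of 3.49, 2.13 and 2.21, and this leaves 72 core subunits in the tests.

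The study profiled total RNA of 41 tumors and 5 glands, with 1 Affymetrix array for each. Basal-type tumors were C3(1)/Tag (n = 5, SV40 T antigens driven by the C3(1) promoter, FVB mice), p53-/- transplant (n = 7, from transplanted Balb/C gland in which MMTV-cre deleted p53) and BRCA1-/-p53+/- (n = 5, MMTV-cre deletion of BRCA1 in p53+/- mice, 129B6/FVB). Luminal-type tumors were MMTV-H-Ras (n = 5), MMTV-Her2/neu (n = 5), MMTV-c-Myc (n = 4), MMTV-PymT (n = 6) and MMTV-Wnt1 (n = 4), all FVB mice that carry an oncogene under the MMTV promoter, which is active mainly in mammary epithelium. Normal glands (n = 5) came from pregnant FVB mice, late in pregnancy by the methods of the study, so that the Balb/C and 129B6/FVB tumors had no gland of their own strain here. Each tumor of a model was taken from a different animal, by the methods.

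Oxidative phosphorylation couples the oxidation of NADH and succinate to the synthesis of ATP. Electrons enter at complex I (NADH dehydrogenase) or complex II (succinate dehydrogenase), pass through complex III (the cytochrome bc1 complex) to complex IV (cytochrome c oxidase), and the proton gradient built on the way drives complex V (ATP synthase). Most subunits are encoded in the nucleus, as all members here are, while a set of core proteins is encoded by mitochondrial DNA, and brown fat and striated muscle are known for their dense respiratory chains.

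Several arrays stood apart in what other tissue they held, and the subunits were read beside this. Ucp1, the uncoupling protein that defines brown fat, had log2 values of 2.04 to 8.16 in tumors, of 13.01, 13.96 and 14.05 in glands 1, 2 and 3 and of 2.13 and 2.24 in glands 4 and 5, where about 2 is the floor of these values. Over the 5 measured genes of a list of 8 brown adipocyte markers the mean log2 level was 2.24 to 5.13 in the tumors, 8.68, 11.06 and 10.79 in glands 1 to 3 and 5.09 and 4.50 in glands 4 and 5. White fat markers (10 of 12 measured) averaged 2.84 to 11.48 in tumors and 9.99 to 11.23 in glands. Skeletal muscle markers (16 of 16 measured) averaged 2.30 to 13.58 in tumors, with the highest value in BRCA1-/-p53+/- tumor 2, and 4.76 to 12.15 in glands, with the lowest in gland 2. Epithelial Epcam was at 3.60 in MMTV-Wnt1 tumor 3 and at 5.28 and 2.99 in BRCA1-/-p53+/- tumors 3 and 4, against 10.55 to 14.64 in the other tumors. Milk protein transcripts fell in tumors against gland (5 of 5, median log2 difference -7.16), as did the subunits described below. Proliferation markers rose (4 of 4 measured, median 3.89), opposite to the subunits. The part of either in the subunit differences was not tested. In whole tissue, fewer cells of a type and less RNA per cell cannot be told apart.

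Subunit transcripts were lower in tumors than in normal gland in every respiratory complex. In the limma fit, with Benjamini-Hochberg adjustment over 9329 genes, 67 of 81 members fell in the mean of the 8 models and 0 rose. Over all genes 17.1% fell and 24.2% rose. Among core subunits 62 of 72 fell, with a median log2 difference of -0.88, a 1.84-fold lower level, against a median of 0.20 over all genes tested. The mean of all 8 models lay below the gland mean for 64 of 72 core subunits, against 15% of all genes, and all 5 glands lay above all 41 tumors for 10 of 72, against 1.23% of all genes. The size of the difference depended on the glands. When glands 1 to 3, which held Ucp1 transcript, were left out, the median log2 difference over core subunits was -0.38. In that fit 12 of 81 members fell and 0 rose, against 7.87% and 7.79% of all genes. Fewer glands also widen the SE, so the drop in calls does not measure the size alone.

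The mean log2 value over the subunits of a complex, a score given here without a test, lay below that of the glands for each complex. For complex I (32 genes) the mean of the 8 models was 11.54 and that of the glands 12.56 ± 0.55 (SD, n = 5), a difference of -1.01. The difference was -1.14 for complex II (4 genes), -1.17 for complex III (8 genes), -0.77 for complex IV (11 genes) and -0.52 for complex V (17 genes). The order of the complexes depended on the glands, since against glands 4 and 5 alone the differences were -0.48 for complex I, -0.26 for complex II, -0.60 for complex III, -0.50 for complex IV and -0.27 for complex V. Over all 72 core subunits the tumors ran from 11.41 in BRCA1-/-p53+/- tumor 1 through a median of 11.97 to 12.38 in MMTV-PymT tumor 2, and the glands scored 12.78, 13.25, 13.33, 12.32 and 12.41 in order of their number. Glands 4 and 5, without Ucp1 transcript, were thus the lowest of the 5, and 1 tumor lay above the lowest gland. For complexes III and IV no tumor lay above the lowest gland, while 1 did for complex I, 9 for complex V and 20 for complex II.

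**Figure D1:**
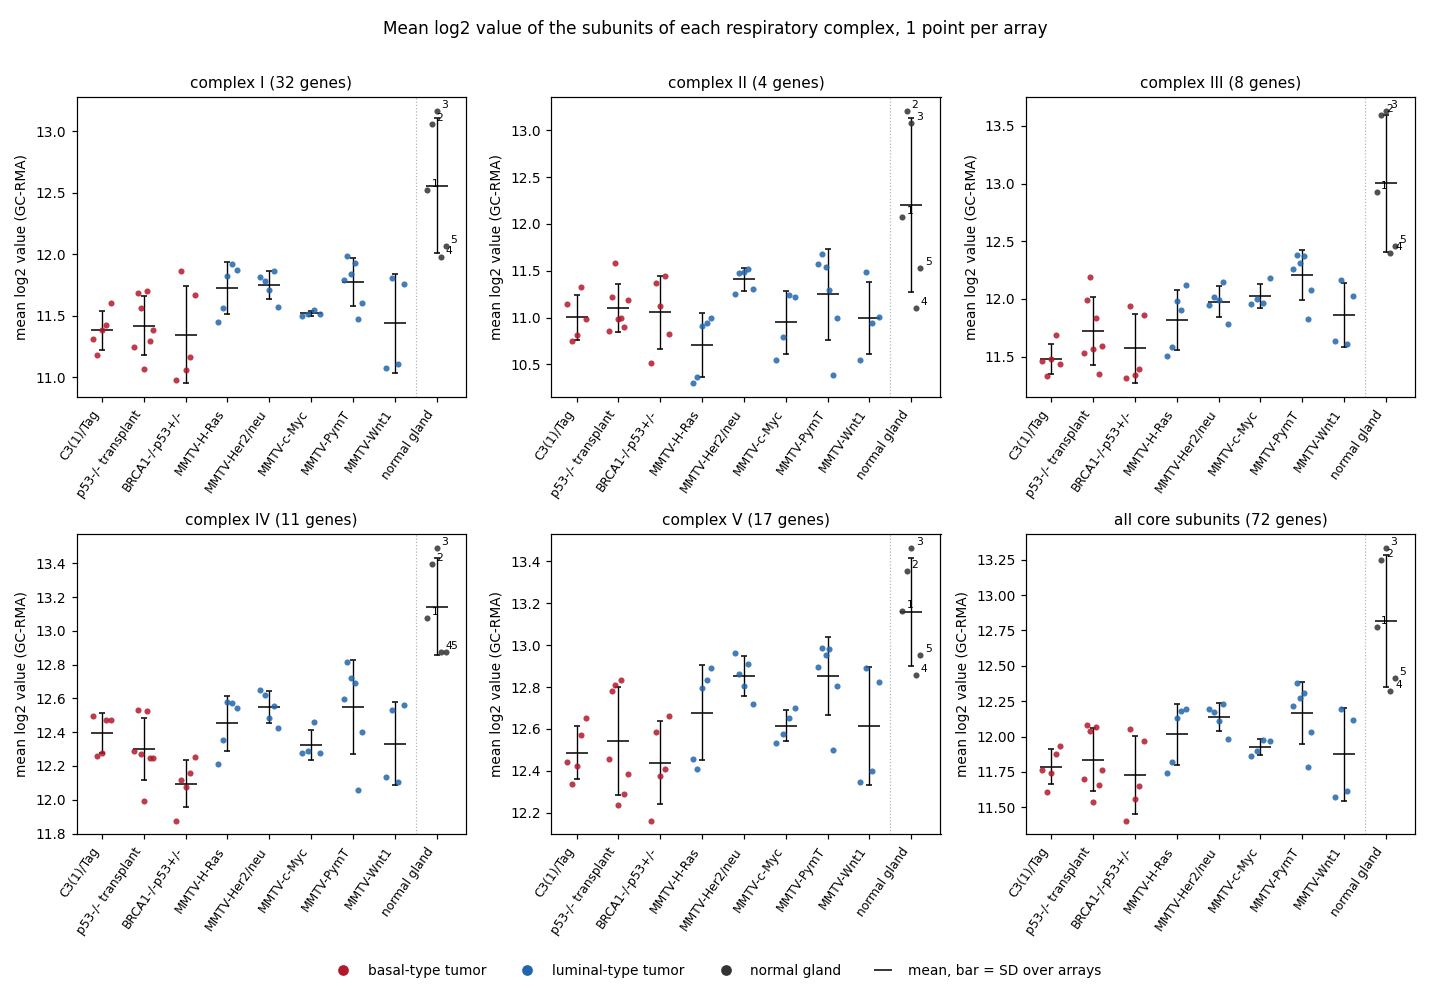
Mean log2 value of the subunits of each complex and of all 72 core subunits, 1 point per array, for the 8 tumor models (basal-type red, luminal-type blue) and the 5 numbered normal glands (black); horizontal marks are group means and bars SDs over arrays. Model means over all core subunits lie between 11.73 and 12.16 and the gland mean is 12.82, with glands 4 and 5 nearest to the tumors.

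In complex I, 29 of 32 subunits fell, with a median log2 difference of -0.99, and the other 3, Ndufa2, Ndufa8 and Ndufa13, had differences of -0.40, -0.39 and -0.37. Ndufs4, an accessory subunit of the matrix arm whose loss causes Leigh syndrome in humans, had log2 values of 8.67, 9.79 and 10.66 in tumors (lowest, median and highest) and of 11.86, 11.80, 12.40, 11.06 and 10.89 in the glands. No tumor reached a gland, and the difference of -1.84 ± 0.23 (SE; limma adjusted p = 2.44e-08) was the largest of the complex, a 3.58-fold lower level. Of its 3 probe sets, the dimmest, with a mean of 4.48, showed a difference of 0.09 and the other two -1.57 and -1.84. Ndufb6 (-1.63), Ndufa10 (-1.57), Ndufc2 (-1.45) and Ndufa1 (-1.43), all accessory subunits of the membrane arm, fell as well. In the NADH-binding module, Ndufv1, the flavoprotein that takes electrons from NADH, differed by -1.27, Ndufv2 by -1.16 and Ndufv3 by -1.44. Ndufa1, Ndufb6, Ndufc2, Ndufs4 and Ndufv3 were the 5 subunits of the complex whose 5 glands all lay above all 41 tumors. These 5 were also the complex I subunits that fell against glands 4 and 5 alone, with differences between -1.18 and -1.43.

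All 4 subunits of complex II, which also serves the citric acid cycle, fell against the 5 glands. Sdhb, the iron-sulfur subunit, had log2 values of 10.61, 11.49 and 12.43 in tumors (lowest, median and highest) and of 12.72, 13.85, 13.65, 12.05 and 12.19 in the glands, a difference of -1.40 ± 0.24 (SE; limma adjusted p = 8.24e-06). Sdha, the flavoprotein that oxidises succinate, ran from 9.26 through 11.07 to 11.91 in tumors and stood at 12.18, 13.53, 13.28, 10.97 and 11.55 in the glands, a difference of -1.27 ± 0.28 (SE; limma adjusted p = 0.000406). The membrane anchors Sdhc and Sdhd differed by -0.86 and -1.05. The highest values of all 4 genes were in glands 2 and 3, whereas glands 4 and 5 lay within the range of the tumors. The complex II score had an SD of 0.93 in the glands and of 0.12 to 0.49 in the models. These SEs and p-values rest on a spread pooled over models and glands, so they can overstate the certainty of the fall. Against glands 4 and 5 alone none of the 4 passed, with differences of -0.62 for Sdhb, -0.23 for Sdha, -0.14 for Sdhd and -0.04 for Sdhc (limma adjusted p = 0.20, 0.75, 0.87 and 0.94 in that order).

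In complex III, all 8 subunits fell, with differences from -0.71 (Uqcrb) to -2.20 (Uqcrq). Uqcrq, a small subunit of the membrane part, had log2 values of 9.69, 11.12 and 11.82 in tumors (lowest, median and highest) and of 13.45, 13.59, 13.93, 12.55 and 12.48 in the glands. Every gland was above every tumor, and the difference of -2.20 ± 0.22 (SE; limma adjusted p = 1.73e-10), a 4.60-fold lower level, was the largest of any core subunit. Against glands 4 and 5 alone it was -1.52 ± 0.31 (SE; limma adjusted p = 0.000536). Uqcrc1 and Uqcrc2, the large core proteins, differed by -1.35 and -1.06, Uqcrfs1, the Rieske iron-sulfur protein, by -1.03, and the hinge protein Uqcrh by -0.79. Cyc1, the cytochrome c1 of the same complex, which the rule did not take in, also fell (-0.81 ± 0.20, SE; limma adjusted p = 0.00127), with a difference of -0.03 against glands 4 and 5 alone.

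In complex IV, 10 of 11 subunits fell, with a median of -0.83. Ndufa4, formerly counted with complex I, had the largest difference at -1.37, followed by Cox8a (-1.22), Cox5a (-1.08) and Cox6c (-1.01), and for Cox5a and Cox6c all glands lay above all tumors. Among the ubiquitous forms that have a tissue-specific partner, Cox7a2 differed by -0.83, Cox6a1 by -0.57, Cox4i1 by -0.43 and Cox6b1 by -0.39 (limma adjusted p = 0.045). Cox7a2l, which helps to assemble respiratory supercomplexes, had log2 values of 11.19, 11.80 and 12.69 in tumors (lowest, median and highest) and of 11.94, 11.93, 11.98, 11.84 and 12.15 in glands. The glands lay inside the range of the tumors, and the difference of -0.08 ± 0.15 (SE; limma adjusted p = 0.71) did not pass. Cox7c was read by 2 probe sets of low level, a mean of 6.34 for the one used and of 4.59 for the other, whose differences were -0.91 and 0.77, so that its direction rests on the choice of probe set.

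In complex V, 11 of 17 subunits fell, with a median of -0.59 against all 5 glands. The catalytic subunits alpha (Atp5a1) and beta (Atp5b) each differed by -0.59, and Atp5md, a small subunit of the membrane part, differed most (-1.31 ± 0.14, SE; limma adjusted p = 2.36e-09), with all glands above all tumors. The 6 that did not pass were Atp5c1 (gamma, -0.27), Atp5h (d, -0.17), Atp5j (F6, -0.07) and the genes Atp5g1, Atp5g2 and Atp5g3, which encode the same mature subunit c of the rotor and differed by -0.18, 0.09 and -0.20. Atp5g3 had log2 values of 13.06, 13.84 and 14.35 in tumors (lowest, median and highest) and of 14.04, 13.81, 13.83, 14.17 and 14.18 in the glands, which lay inside the range of the tumors. Of the complex I assembly factors, Ndufaf5 (-1.12) and Ndufaf4 (-0.92) fell, and Ndufaf1, Ndufaf3 and Ndufaf7 differed by -0.46, -0.55 and 0.01.

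**Figure D2:**
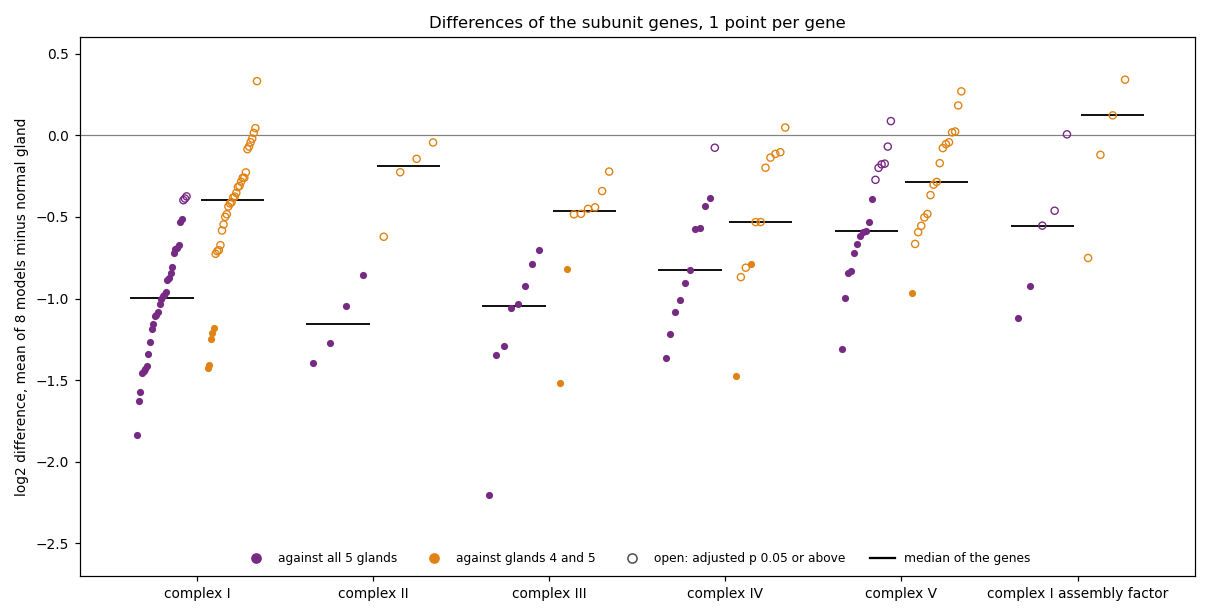
Log2 difference of each subunit gene, mean of the 8 models minus normal gland, grouped by complex and sorted within it, against all 5 glands (purple) and against glands 4 and 5 only (orange); filled points passed an adjusted p of 0.05 and black lines are medians. The complex I median is -0.99 against all glands and -0.40 against glands 4 and 5.

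With glands 4 and 5 as the only glands (43 arrays), 64 of 72 core subunits still had differences below 0, against 3953 of 9329 genes. Of the 72 core subunits 10 passed the test as lower, against 7.87% of all genes. The medians were -0.40 for complex I, -0.19 for complex II, -0.47 for complex III, -0.53 for complex IV and -0.29 for complex V, against 0.15 over all genes. The 10 were Ndufa1, Ndufb6, Ndufc2, Ndufs4, Ndufv3, Uqcrq, Uqcr11, Cox5a, Cox7c and Atp5md. For Cox7c the direction against all 5 glands rests on the choice of probe set, as given above. Brown fat marker means and core subunit scores were both higher in glands 1 to 3 than in glands 4 and 5, but their order differed within these sets. Gland 5 had a lower brown fat marker mean than gland 4 (4.50 against 5.09) and a higher core score (12.41 against 12.32). Glands 4 and 5 had Ucp1 at the floor and Cidea at 14.17 and 12.10. What part brown fat RNA had in the differences between glands was not tested. Nor was the part of white fat or muscle RNA of glands 4 and 5 in the remaining difference.

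The muscle forms fell much further than the core subunits. Cox8b, the form of subunit 8 found in heart, skeletal muscle and brown fat of mice, had log2 values of 2.11, 3.77 and 11.21 in tumors (lowest, median and highest) and of 13.23, 13.87, 14.02, 8.52 and 10.77 in the glands, a difference of -7.33 ± 0.83 (SE; limma adjusted p = 4.56e-09). Cox7a1, known from the same tissues, ran from 2.69 through 6.32 to 10.63 in tumors and stood at 12.32, 13.09, 13.46, 7.04 and 10.04 in the glands, a difference of -5.10 ± 0.78 (SE; limma adjusted p = 1.46e-06). Cox6a2, the form of heart and skeletal muscle, ran from 2.20 through 2.26 to 12.30 in tumors and stood at 10.45, 2.23, 9.90, 7.35 and 10.03 in the glands, a difference of -5.04 ± 0.89 (SE; limma adjusted p = 1.6e-05). Tumors and glands overlapped for all 3, and the highest tumor for Cox8b and Cox6a2 was BRCA1-/-p53+/- tumor 2.

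Some arrays of high or low muscle and fat markers were also high or low for the muscle forms, and others were not. Gland 2, the only gland with low skeletal muscle markers (Ckm, muscle creatine kinase, at 3.95 against 12.05 to 13.60 in the other glands), was also the only one with Cox6a2 at the floor, but had Cox7a1 and Cox8b at 13.09 and 13.87 together with Ucp1 at 13.96. BRCA1-/-p53+/- tumor 2, with Ckm at 14.41, Ucp1 at 2.39 and the highest white fat marker mean of all 46 arrays (11.48, with Adipoq at 14.22), had Cox6a2 at 12.30, Cox7a1 at 10.31 and Cox8b at 11.21. In contrast, the MMTV-Her2/neu tumors had Cox7a1 at 8.57 to 8.89 with Ckm at 2.21 to 4.82 and Ucp1 at 2.09 to 3.25, MMTV-Wnt1 tumor 4 had Ckm at 8.77 and Cox7a1 at 3.20, and MMTV-H-Ras tumor 4 had Ckm at 8.05 and Cox6a2 at 2.38. In C3(1)/Tag against the other models 7 of 16 skeletal muscle markers rose, with a median of 3.21, and none of the 3 muscle forms passed. With gland 2 as the only gland and BRCA1-/-p53+/- tumor 2 left out, the differences were 0.49 for Cox6a2, -7.12 for Cox7a1 and -9.28 for Cox8b. Against glands 4 and 5 alone, which held muscle but no Ucp1 transcript, they were -5.74 for Cox6a2, -2.45 for Cox7a1 (limma adjusted p = 0.13) and -4.90 for Cox8b.

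**Figure D3:**
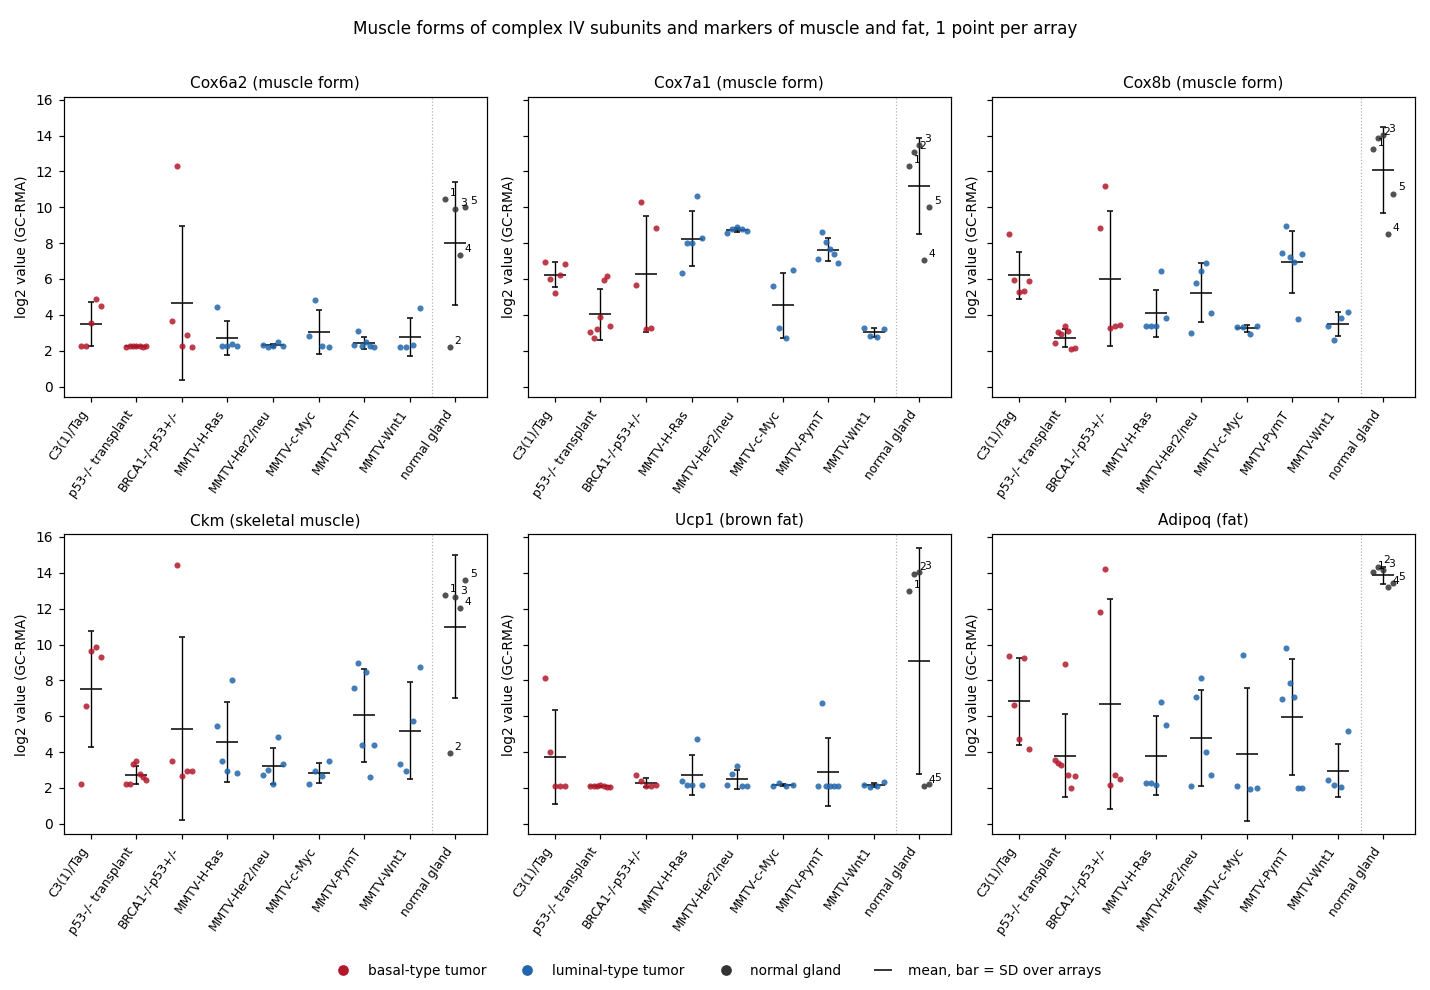
Log2 values of the muscle forms Cox6a2, Cox7a1 and Cox8b and of the markers Ckm (skeletal muscle), Ucp1 (brown fat) and Adipoq (fat), 1 point per array, tumor models left and the 5 numbered glands right; marks are means and bars SDs. Gland 2 is low for Ckm and has Cox6a2 at the floor, glands 4 and 5 have Ucp1 at the floor, and 1 BRCA1-/-p53+/- tumor carries Ckm at 14.41 and Cox6a2 at 12.30.

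Promoters were looked at because most members moved together against the glands. RefSeq promoter windows (GRCm38.p6, 250 bases before to 50 after a start) were matched for 70 of 84 members and searched on both strands for the cores of motifs known for nuclear respiratory genes. CGCATGCGC, part of the palindrome bound by NRF1, was present in 9 of 70 members (12.9%) and 1.95% of 27025 genes, CCGGAAGT, an ETS core as bound by GABP, in 5 of 70 (7.14%) and 4.31%, AAGATGGCG, a YY1 core, in 6 of 70 (8.57%) and 1.64%, and TCAAGGTCA, the ERRA core, in 2 of 70 (2.86%) and 0.466%. The 27025 were all genes with a promoter window, whether or not on the array, so the shares rest on unlike sets of genes. Whether members differ in these motifs from the other genes of the array was not tested. The NRF1 core can match both strands of a full palindrome at overlapping places, and such a promoter was counted once. The stretches below lie before the start of transcription, are read along the strand of the gene, carry the motif in capitals, and are shown as examples, chosen after their values were seen, of genes with the same motif that did and did not fall.
Cox6a1, NRF1 core, chr5:115349103-115349127: gaacggggCGCATGCGCgctctcgc
Atp5k, NRF1 core, chr5:108434432-108434456: cactgcggCGCATGCGCctttctgg
Ndufaf4, NRF1 core, chr4:24897963-24897987: gatgtctgCGCATGCGCctgtgcgg
Atp5g2, NRF1 core, chr15:102671072-102671096: tccggccgCGCATGCGCagagcctt
Uqcr11, ETS core, chr10:80406872-80406895: tctcctccCCGGAAGTagatgtca
Atp5h, ETS core on the opposite strand, chr11:115419943-115419966: aggagagaACTTCCGGcaactctc
Of all 9 carriers of the NRF1 core 7 fell, and Atp5g2 (0.09) and Ndufa8 (-0.39) did not pass. Of the 5 carriers of the ETS core 4 fell and Atp5h (-0.17) did not pass, of the 6 of the YY1 core 5 fell, and of the 2 of the ERRA core 1 fell, against 56 of the 69 tested members with a promoter window. The genes whose stretches are shown lie on the minus strand except Ndufaf4.

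Among the 8 models, 44 of 81 members differed by the limma F test, against 74.5% of all genes, and 37 of 72 core subunits did. The lowest adjusted p belonged to Cox6b2, the testis form of subunit 6b. Its log2 values were 5.29, 7.48, 8.60, 6.49 and 6.45 in C3(1)/Tag tumors and 5.13, 4.40, 2.36 and 4.26 in MMTV-Wnt1 tumors. In the remaining models it ran from 2.18 to 2.34 except for p53-/- transplant tumor 7 (3.53) and MMTV-c-Myc tumor 1 (3.21), and in the glands it stood at 2.28, 3.28, 2.32, 2.42 and 2.31. All C3(1)/Tag tumors lay above every other array, and C3(1)/Tag exceeded the mean of the other 7 models by 4.28 ± 0.29 (SE; limma adjusted p = 1.73e-14). MMTV-Wnt1 exceeded the mean of its other models by 1.05 ± 0.32 (SE; limma adjusted p = 0.036), with tumor 3 at the floor. Only tumors of C3(1)/Tag and MMTV-Wnt1 exceeded the log2 value of 4 that testing required. Cox6b2 was thus admitted to the tests by the groups in which it was high, and these p-values are no independent support. Cox6b1, the ubiquitous partner, differed by -0.33 in C3(1)/Tag (limma adjusted p = 0.12).

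The other members with the lowest adjusted p differed in which models were high or low, and the tumors of those models mostly overlapped with others. Ndufv3 was lowest in C3(1)/Tag tumors (10.28, 10.55, 10.67, 9.93 and 10.06) and in p53-/- transplant tumors (10.06, 10.57 and 11.10, lowest, median and highest), against 10.58 to 12.13 in the tumors of the other models, with which both models overlapped. C3(1)/Tag differed by -0.87 and p53-/- transplant by -0.64 from the other models. Ndufs5, a small subunit of complex I, was highest in p53-/- transplant tumors (7.37, 7.84 and 8.68), against 6.24 to 7.69 in all other tumors, which overlapped with them, a difference of 1.15 ± 0.17 (SE; limma adjusted p = 8.38e-06). This gene was read by a dim probe set, since the brighter probe set is annotated to a pseudogene as well and was not used, and the Balb/C strain of this model cannot be told apart from the model. Uqcr11, a small subunit of complex III, stood at 10.78, 10.69, 10.76, 10.64 and 10.98 in C3(1)/Tag tumors and at 11.99, 12.40, 12.29 and 12.31 in MMTV-c-Myc tumors, which did not overlap, with differences from the other models of -0.88 and 0.80. Ndufa3, of complex I, stood at 12.79, 12.93 and 13.15 in MMTV-PymT tumors (lowest, median and highest) and at 11.63, 11.57, 11.71, 11.99 and 11.91 in C3(1)/Tag tumors, with differences from the other models of 0.67 and -0.68. MMTV-Her2/neu tumors reached 13.07, and the lowest tumors were BRCA1-/-p53+/- tumors 4 and 1 (11.14 and 11.39).

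**Figure D4:**
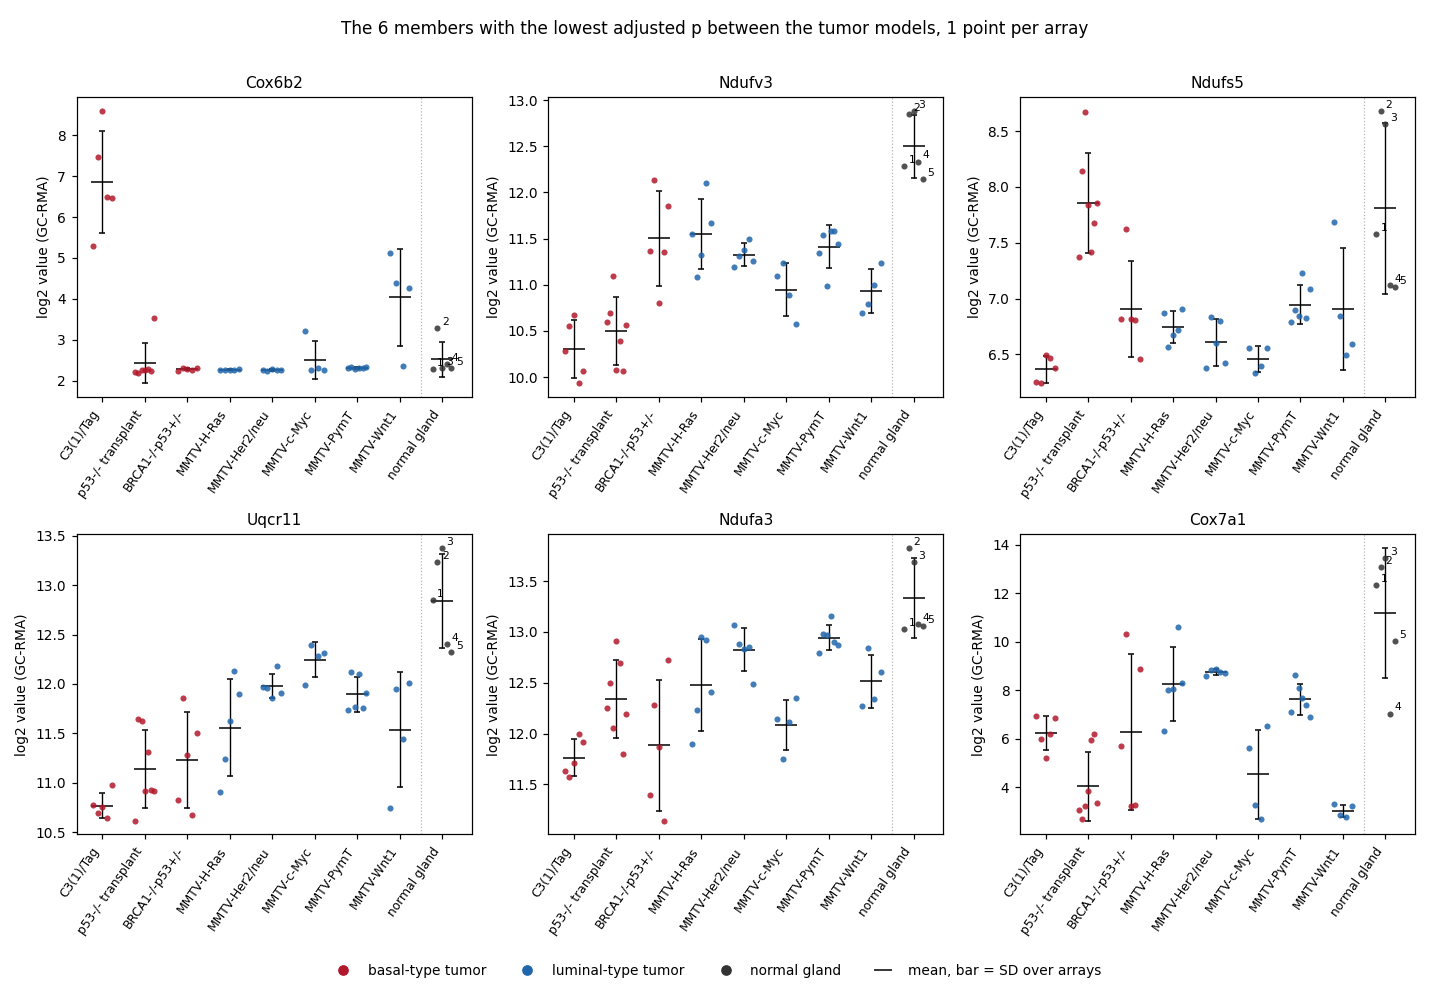
Log2 values of the 6 members with the lowest adjusted p between the models, 1 point per array, tumor models left and the 5 numbered glands right; marks are means and bars SDs over arrays, and each panel has its own scale. Cox6b2 exceeds 5 in all C3(1)/Tag tumors, and Ndufs5 is 7.37 or higher in all p53-/- transplant tumors.

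Each model was then set against the mean of the other 7. C3(1)/Tag had 3 members higher and 15 lower, where 19.5% of all genes were higher and 9.42% lower (28.9% in either direction), and with arrays centred on their medians it had 1 higher and 28 lower. Core subunits that fell belonged to complex I (7 of 32), complex III (2 of 8) and complex V (5 of 17, with Atp5g1 at -0.78 and Atp5g2 at -0.74), and Ndufaf4, a complex I assembly factor, fell most (-0.92 ± 0.25, SE; limma adjusted p = 0.0049). In complex IV none fell and 2 of 11 rose, Ndufa4 by 0.91 and Cox6a1 by 0.35, neither of which passed with arrays centred on their medians (0.66 and 0.09; limma adjusted p = 0.10 and 0.62). The p53-/- transplant tumors had 3 members higher and 9 lower, against 10.6% and 5.69% of all genes (2 higher and 17 lower with centred arrays), with Ndufaf1, another assembly factor, 1.40 higher and Cox7a1 and Cox8b 2.34 and 2.31 lower on the log2 scale. BRCA1-/-p53+/- had 1 higher (Ndufv3, 0.51) and 8 lower, against 6.75% and 11.9% (18.6% in either direction). With arrays centred on their medians it had 1 higher and 1 lower. Its assembly factor Ndufaf3 differed by -1.49, with tumor 1 at 2.39 and the other tumors between 5.47 and 8.10, and by -0.55 without that tumor.

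Of the luminal-type models, MMTV-H-Ras had 10 members higher and 4 lower, against 9.64% and 14.8% of all genes (24.4% in either direction), and 17 higher and 1 lower with centred arrays. In complex I 5 of 32 subunits were higher and 0 lower, and in complex II 2 of 4 were lower and 0 higher, and the difference between the complexes was not tested. Sdha stood at 9.26, 9.33, 10.84, 10.84 and 10.91 and Sdhd at 9.50, 8.49, 10.11, 9.97 and 10.15 in these tumors, and they differed from the other models by -0.91 ± 0.29 and -0.96 ± 0.31 (SE; limma adjusted p = 0.018 and 0.023), with the lowest values of both genes in tumors 1 and 2. With arrays centred on their medians both lay just past the threshold (-0.70 and -0.75; limma adjusted p = 0.053 and 0.063). Sdhb and Sdhc differed by -0.17 and 0.41 and did not pass. MMTV-Her2/neu had 15 members higher and 2 lower, against 16.1% and 9.07%, with Cox7a1 3.04 higher, at 8.57, 8.82, 8.89, 8.76 and 8.69, Uqcrfs1 0.93 higher, Sdha 0.85 higher and Uqcrq 0.72 lower, and with centred arrays it had 4 higher and 2 lower, with Sdha at 0.67 (limma adjusted p = 0.061). MMTV-PymT had 10 higher and 1 lower, against 10.9% and 6.89%, with Cox8b 2.53 higher, Atp5g1 0.82 higher and Ndufb2 0.81 higher. With centred arrays it had 4 higher and 1 lower, with Ndufb2 at 0.71 (limma adjusted p = 0.065). Without tumor 2, in which Ucp1 stood at 6.76, 4 members were called in this model. Skeletal muscle markers averaged 6.48, 7.01, 4.63 and 6.75 in MMTV-PymT tumors 1 to 4 and 2.65 and 3.31 in tumors 5 and 6. The part of muscle or brown fat RNA in the Cox8b difference was not tested. Relative to the median of all genes the core subunits stood at 0.26 in MMTV-Her2/neu, at 0.26 in MMTV-PymT and at 0.24 in MMTV-H-Ras. They stood at -0.27 in C3(1)/Tag and at -0.19 in p53-/- transplant. Centring shifts all genes of an array alike, so it could hardly change these distances and is no test of them.

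MMTV-c-Myc had 2 members higher and 1 lower, against 4.76% of all genes in each direction (9.52% in either). Ndufaf4 rose (9.59, 10.36, 9.90 and 10.23, a difference of 1.27 ± 0.28, SE; limma adjusted p = 0.0023), Uqcr11 rose, and Ndufaf3 fell (6.94, 3.59, 6.39 and 6.81, a difference of -1.78, which without tumor 2 no longer passed, limma adjusted p = 0.35). MMTV-Wnt1 had 1 higher (Cox6b2) and 2 lower, against 2.64% and 3.69%, which were Cox7a1 (3.29, 2.85, 2.78 and 3.20, a difference of -3.50) and Sdhc (-0.80, not called with centred arrays, limma adjusted p = 0.075). Cox6b2 was also called lower, by 0.79 to 0.98, in 5 models in which it stood mostly at the floor, because the C3(1)/Tag and MMTV-Wnt1 values enter the mean of the other models. Milk transcripts differed between the models as well, with list means (5 of 5 measured) of 12.62 to 13.36 in MMTV-Her2/neu and 10.73 to 13.61 in MMTV-PymT tumors, the models with the highest core subunit scores. They were 2.84 to 6.53 in C3(1)/Tag tumors and 3.27 to 13.38 in BRCA1-/-p53+/- tumors, the model with the lowest core score. Some tumors departed from this. MMTV-c-Myc tumor 2 had the highest milk mean of the tumors (14.38) with a core score of 11.90, and MMTV-Wnt1 tumor 2 had 4.46 with 12.20. The part of milk transcripts in the subunit differences was not tested.

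**Figure D5:**
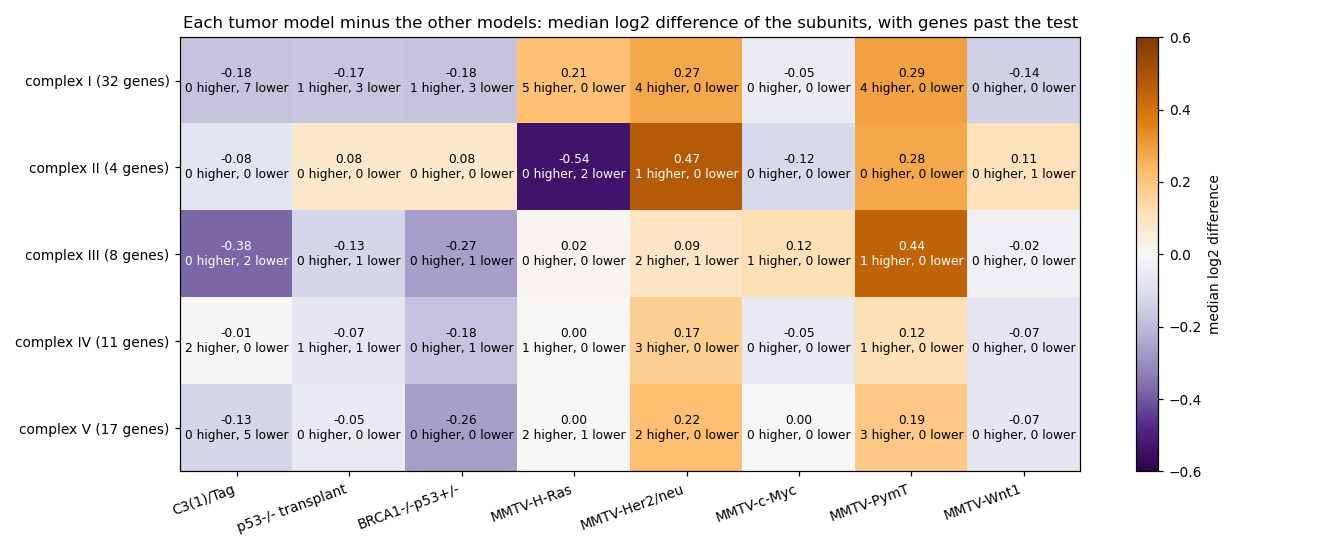
Median log2 difference of the subunits of each complex between a tumor model and the mean of the other models, with the number of subunits that passed the test higher and lower in each cell; purple is lower and orange higher. MMTV-H-Ras is at 0.21 for complex I and -0.54 for complex II, and MMTV-PymT reaches 0.44 for complex III.

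Basal-type tumors had lower subunit levels than luminal-type tumors when tumors were pooled by class. Of 81 members 25 fell and 0 rose, against 12% and 15.9% of all genes, and the median over core subunits was -0.24 against 0.06 over all genes. Those that fell were 12 of 32 complex I, 4 of 8 complex III, 2 of 11 complex IV and 6 of 17 complex V subunits and 1 of 5 assembly factors, while none of the 4 complex II subunits passed (median 0.01). Ndufb2, of the complex I membrane arm, ran from 9.39 to 11.61 in basal-type tumors and from 8.97 to 12.27 in luminal-type tumors, a difference of -0.85 ± 0.21 (SE; limma adjusted p = 0.0026). Uqcr11 ran from 10.62 to 11.86 and from 10.75 to 12.40, a difference of -0.79 ± 0.14 (SE; limma adjusted p = 8.24e-05). Cox7c, read by the probe set of low level described above, differed by -0.85. Classes overlapped for all 3 genes. Fibroblast markers were higher in basal-type tumors (4 of 6, median 2.04) and milk transcripts lower (3 of 5, median -3.12), and their part in the subunit differences was not tested. When the model entered as a random block, so that tumors of a model are not taken as independent, 0 members passed (18 had an unadjusted p under 0.05) and 49 of 9329 genes (0.525%) did, with adjusted p of 0.077 for Uqcr11, 0.21 for Ndufb2 and 0.25 for Cox7c. Of the basal-type models 2 of 3 were of other strains than the luminal-type models, and with FVB arrays only Cox7c and Ndufb2 no longer passed (limma adjusted p = 0.66 and 0.065).

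Other genes of mitochondrial metabolism were read beside the subunits in tumors minus normal gland. All 16 measured genes of the citric acid cycle and pyruvate dehydrogenase list (of 18) fell, with a median of -1.55, led by the pyruvate dehydrogenase subunits Dlat (-2.97) and Dld (-2.15), and 4 of 16 fell against glands 4 and 5 alone, with Dlat at -2.58. Of 13 electron carrier and coenzyme Q genes 10 fell, led by Coq8a (-5.20) and Coq10a (-3.53), and 4 of 13 did against glands 4 and 5. Of 28 assembly factors outside the rule 13 fell, and 1 against glands 4 and 5. Of 74 mitochondrial ribosomal protein genes 21 were lower and 3 higher, and 3 were lower and 2 higher against glands 4 and 5, where 7.87% of all genes were lower. Of 20 regulators of mitochondrial biogenesis 3 fell, near the 17.1% of all genes, and 2 rose, and the largest falls were those of the coactivator Ppargc1b (-3.65) and the nuclear receptor Esrra (-1.88), which were -2.62 and -1.60 against glands 4 and 5 (limma adjusted p = 0.024 and 0.0038). None of the 13 subunits encoded by mitochondrial DNA was measured under its own name.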

How the data were processed

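Total RNA of 41 tumors and 5 normal glands was hybridised to Affymetrix mouse genome arrays, scanned with GCOS. The authors normalised the arrays by GC-RMA in Partek and deposited log2 values of 18586 probe sets, after removal of probe sets called present or marginal in fewer than 3 samples. Software versions are not given in the sources used here. GC-RMA fits all arrays together and leaves weak probe sets near a floor of about 2, so differences of weak genes are compressed or set by the floor. Array medians ran from 6.48 to 7.48 (log2), and the number of arrays per group limits the precision.

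Probe sets were named through the platform annotation, 16962 with 1 gene, 569 with several (not used to name a gene) and 1055 with none, and symbols were updated through RefSeq GRCm38.p6 tables. Per gene the probe set with the highest mean was kept, and 9329 genes with log2 above 4 in at least 3 arrays were fitted in limma 3.58.1 (R 4.3.3) with a mean per group and moderated by eBayes. Contrasts were the mean of the 8 models minus normal gland, each model minus the mean of the others, an F test among models, and basal-type minus luminal-type. Calls had a Benjamini-Hochberg adjusted p under 0.05 with no minimum of fold. Values were prepared in Python 3.11.15 with pandas 2.3.3. The code was tested on simulated data. The sources used here give no batch or scan date. The p-values measure the spread between arrays within groups, pooled over tumor models and glands. In the pooled class comparison that spread also holds the differences between models of a class. The score over all core subunits had an SD of 0.46 in the glands and of 0.06 to 0.33 in the models. For tumors against glands the pooled spread can thus understate the error, and the calls can overstate certainty.

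Genes named by rule were the muscle and other tissue forms with their ubiquitous partners, the complex II subunits, the members of largest difference or lowest adjusted p in each comparison and the 2 genes of largest difference in each further list, and other named genes were chosen as examples after their values were seen. The members and lists were chosen with earlier results of these data known. Alternatives were quantile normalisation, median centring, other filters, the mean of probe sets, FVB arrays only, a replicate block, the model as a random block and leaving out each array, and, added after the data were seen, other subsets of glands and tumors.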

Additional observations from a re-analysis of the deposited data

Results flagged for a closer look

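Of 279 groups of 4 to 10 arrays examined over the named members and complex scores, 23 held an array far from the rest by Dixon's test, which chance gives in about 1 of 20 groups. Among muscle forms, Cox6a2 stood at a log2 value of 12.30 in BRCA1-/-p53+/- tumor 2 (next highest 3.64), 4.42 in MMTV-H-Ras tumor 1, 3.07 in MMTV-PymT tumor 2 and 4.37 in MMTV-Wnt1 tumor 4, and Cox8b stood at 8.50 in C3(1)/Tag tumor 1, 6.43 in MMTV-H-Ras tumor 4 and 2.92 in MMTV-c-Myc tumor 3. Cox6b2 stood above the floor at 3.53 in p53-/- transplant tumor 7, 3.21 in MMTV-c-Myc tumor 1 and 3.28 in normal gland 2. MMTV-H-Ras tumor 4 was low for Cox7a2l (11.55, next 12.39) and Uqcrq (10.12), and MMTV-Her2/neu tumor 5 was low for Uqcrq (9.79). MMTV-PymT tumor 5 was low for Cox7a2 (13.41) and the complex V score (12.50) and high for Ndufaf4 (9.14). Ndufs4 was high in p53-/- transplant tumor 3 (10.63), and Sdhc was high in MMTV-Her2/neu tumor 3 (11.71) and low in MMTV-PymT tumor 4 (10.31). The assembly factors Ndufaf1 and Ndufaf3 were low in MMTV-H-Ras tumor 1 (2.79, next 7.15) and MMTV-c-Myc tumor 2 (3.59, next 6.39). MMTV-c-Myc tumors 4 and 3 were high for the complex III score (12.18) and the complex IV score (12.46).

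Of the members that differed among the 8 models, 6 had the lowest adjusted p of the limma F test, which were Cox6b2 (1.27e-12), Ndufv3 (9.76e-06), Cox7a1 (3.85e-05), Ndufs5 (5.39e-05), Uqcr11 (6.08e-05) and Ndufa3 (0.000225).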

How the results depend on the processing

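The direction of the tumor against gland difference held for the score of each complex under every alternative run. With glands 4 and 5 alone, 12 members were lower and Cox6b1 turned to 0.047, and with gland 2 alone the scores were -2.16 for complex II and -1.77 for complex III, while Cox6a2 turned to 0.49 and Cox6b2 to -0.16; these subsets were chosen after seeing the data. Leaving out 1 array in turn gave 56 to 68 members lower (56 without gland 2) and 0 to 1 higher, with scores of -1.16 to -0.86 for complex I, -1.42 to -0.89 for complex II, -1.32 to -1.01 for complex III, -0.84 to -0.68 for complex IV and -0.60 to -0.45 for complex V. FVB arrays alone gave 1 member higher. Median centring shifted the median of all genes in tumors minus gland to -0.02, from 0.20, with core subunits 1.06 below it. Since centring shifts all genes of an array alike, this distance was bound to stay nearly the same and is no test of the fall. Among models 36 to 50 members were called when 1 array was left out. Leaving out 1 array gave member counts of 10 to 19 for C3(1)/Tag (10 without tumor 2), 6 to 14 for p53-/- transplant (6 without tumor 1), 2 to 16 for BRCA1-/-p53+/- (2 without tumor 1, 16 without tumor 5), 8 to 15 for MMTV-H-Ras (8 without tumor 2), 10 to 18 for MMTV-Her2/neu (10 without tumor 1), 1 to 4 for MMTV-c-Myc (1 without tumor 2), 4 to 16 for MMTV-PymT (4 without tumor 2) and 1 to 4 for MMTV-Wnt1 (1 without tumor 1). Median centring gave 29 for C3(1)/Tag, 19 for p53-/- transplant, 2 for BRCA1-/-p53+/-, 6 for MMTV-Her2/neu and 5 for MMTV-PymT, quantile normalisation 5 for BRCA1-/-p53+/-, the mean of probe sets 5 for MMTV-c-Myc, FVB arrays 7 for MMTV-c-Myc and 6 for MMTV-PymT, and 0 for BRCA1-/-p53+/- without the 4 tumors of few epithelial or many muscle transcripts, which left 2 tumors of this model and larger differences for Ndufv3 (0.62) and Ndufaf3 (-2.48). The cause was not tested. For basal-type against luminal-type, 21 to 28 members were lower and 0 to 1 higher when 1 array was left out, 0 were lower with the model as a random block, and 2 (FVB arrays), 1 (without those 4 tumors) and 1 (models weighted equally) were higher. The replicate numbers did not pair the samples (mean correlation 0.0144 over 166 pairs of the same number, over 0.1 in 23), and a replicate block gave 7 members for p53-/- transplant. The filter on low values moved none of these counts by over 1.5 times.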
